A study of Mus musculus with 6 samples.

Results

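The genes described here are 10 regulators of the meiotic cell cycle in the mouse testis: the cyclins Ccna1, Ccna2, Ccnb1, Ccnb2 and Ccnb3, the kinases Cdk1, Cdk2, Plk1 and Aurkc, and the phosphatase Cdc25c. They were found by gene symbol, and all 10 of 10 were present among the 24411 genes of the deposited tables and passed the filter on low counts. RNA was sequenced from whole testes of 6 age-matched C57BL/6 mice, a standard inbred strain. Of these, 3 animals are labelled MRP5-/- and MRP9-/- (DKO, for double knockout) and 3 are labelled wildtype (WT). MRP5 and MRP9 are membrane transporters of the ABCC family, encoded by Abcc5 and Abcc12. No treatment, age in days or design of the alleles is given in the labels. The question was whether the transcripts of the meiotic cell-cycle engine differ between the labelled genotypes.

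Cyclins bind and activate cyclin-dependent kinases, and successive cyclin-kinase pairs drive a cell from one phase of its cycle to the next. In male germ cells the same machinery is used for the mitoses of spermatogonia and then for the meiotic divisions of spermatocytes, which follow a long prophase. CDK1 with B-type cyclins triggers entry into division after CDC25 phosphatases remove its inhibitory phosphates, and PLK1 and Aurora kinases act with it on chromosomes and spindle. CDK2 is known for a separate role in meiotic prophase, at telomeres and at crossover sites, and mice without it are sterile.

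The promoters of Cdk2, Cdk1 and Ccnb2 are shown because Cdk2 was the only gene of the 10 whose level passed the test between genotypes, Cdk1 is its closest relative among the 10, and Ccnb2 was the most abundant transcript. Each stretch covers 150 bases before and 30 bases after the annotated start site, is written 5′ to 3′ on the strand of the gene, and comes from the RefSeq table for build GRCm38.p6. Capitals mark matches on either strand to the CHR element of cell-cycle genes (TTTGAA), the CCAAT box (CCAAT) and the E2F site (TTTCCCGC, TTTCGCGC, TTTGCCGC or TTTGGCGC).
Cdk2, chr10:128705022-128705201, minus strand: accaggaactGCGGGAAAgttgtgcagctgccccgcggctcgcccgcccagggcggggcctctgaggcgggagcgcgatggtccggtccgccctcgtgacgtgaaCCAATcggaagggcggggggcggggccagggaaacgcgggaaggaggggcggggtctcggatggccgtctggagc
Cdk1, chr10:69352883-69353062, minus strand: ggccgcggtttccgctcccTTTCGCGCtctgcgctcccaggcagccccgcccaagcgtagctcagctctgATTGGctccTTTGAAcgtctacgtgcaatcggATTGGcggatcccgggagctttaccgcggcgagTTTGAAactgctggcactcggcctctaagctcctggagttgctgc
Ccnb2, chr9:70421525-70421704, minus strand: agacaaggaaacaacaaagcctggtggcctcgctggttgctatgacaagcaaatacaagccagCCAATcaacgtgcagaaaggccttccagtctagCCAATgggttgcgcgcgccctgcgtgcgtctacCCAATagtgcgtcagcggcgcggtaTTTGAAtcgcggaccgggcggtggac

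Promoter windows of 300 bases (250 before and 50 after the start) were searched for 8 of the 10 genes. Ccna2 and Cdc25c were not searched, so the counts here do not say whether they hold these motifs. The CHR letters were found in Ccnb2, Cdk1 and Plk1, that is in 3 of 8, and in 17.9% of all 32851 promoters in the table. In Cdk1 the CHR match nearest the start begins 15 bases upstream, and in Ccnb2 it begins at base 5 of the transcript. A CCAAT box was found in 7 of 8, the exception being Ccnb3, against 37.4% of all promoters, and Ccnb2 and Cdk1 hold 3 each. The E2F letters were found in Cdk1 and Cdk2 (2 of 8), against 2.26% of all promoters. The MYB motif TAACNG was found in Ccnb1 and Ccnb3 (2 of 8), against 23.3% of all promoters. No match to a motif overlapped a match to a different motif in these 8 windows, and the matches describe the sequence alone.

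In GRCm38.p6, Ccna1 and Ccna2 lie on chromosome 3, Cdk1 and Cdk2 on chromosome 10, Plk1 and Aurkc on chromosome 7, Ccnb1 on 13, Ccnb2 on 9 and Ccnb3 on X.

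The 6 libraries held counts for every gene of the set. DKO libraries held 42673615 to 67131103 expected counts and WT libraries 26753721 to 31745969. The mean fragment length was 275 to 317 bases in DKO libraries and 230 to 258 bases in WT libraries, so neither depth nor fragment length overlapped between the groups, and neither can be told apart from the genotype label. Counts per library ranged from 74 for Ccnb3 to 10477 for Ccnb2. Of the targeted genes, Abcc12 was at 79.0 ± 5.56 CPM (counts scaled to library size) in DKO and 160 ± 3.93 CPM in WT libraries (SD, n = 3 each; edgeR adjusted p = 0.000307). Abcc5 was not lower, at 16.8 ± 0.190 CPM in DKO and 11.4 ± 0.898 CPM in WT libraries (SD, n = 3 each; edgeR adjusted p = 0.0225). The Abcc5 call was lost in 3 of the 10 other fits that kept every library and in 3 of the 6 leave-one-out fits, but Abcc5 was higher in each, by 0.27 to 0.64 on the log2 scale. Whole-gene counts do not show single exons, and DKO and WT stand for the labels throughout. Germ-cell markers were abundant in all libraries: 19 markers of spermatocytes in prophase summed to 4740 to 5523 CPM and 18 spermatid markers to 23781 to 28338 CPM. Of 8 markers of epididymis epithelium, 2 passed the filter on low counts, Lcn5 and Lcn8 had no counts in any library, and the sum was at most 7.50 CPM.

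Transcript levels of the 10 genes spanned more than 2 orders of magnitude. In TPM, a measure of abundance that accounts for transcript length, the mean of Ccnb2 was 132 times that of Ccnb3 in DKO libraries and 161 times in WT libraries. Ccnb2, the B-type cyclin that accumulates in late spermatocytes, was highest at a mean of 173 TPM over the 6 libraries (range 161 to 182). Ccna1, a germ-cell A-type cyclin needed for the first meiotic division of males, followed at 129 TPM (116 to 147). Plk1, the Polo kinase of division, was at 88.3 TPM (77.3 to 98.9). The ranges of these 3 genes did not overlap.

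Next came Ccnb1, the mitotic B-type cyclin, at 45.0 TPM (41.0 to 50.6), and Cdk2 at 40.0 TPM (35.5 to 43.7). Their ranges overlapped, and Ccnb1 was above Cdk2 in 4 of 6 libraries. Aurkc, an Aurora kinase largely restricted to meiotic cells, was at 32.1 TPM (28.0 to 36.0). Its range overlapped that of Cdk2 across libraries, although Cdk2 was the higher of the pair in 6 of 6. Cdk1 was at 20.5 TPM (18.2 to 22.2) and Cdc25c, an activating phosphatase of CDK1, at 12.0 TPM (11.5 to 13.1). The lowest levels were those of Ccna2, the A-type cyclin of mitotic cells and of DNA replication, at 5.03 TPM (4.30 to 5.95), and of Ccnb3, a cyclin of early prophase, at 1.19 TPM (0.940 to 1.58). From Aurkc downwards no neighbours in this order overlapped in range.

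**Figure D1:**
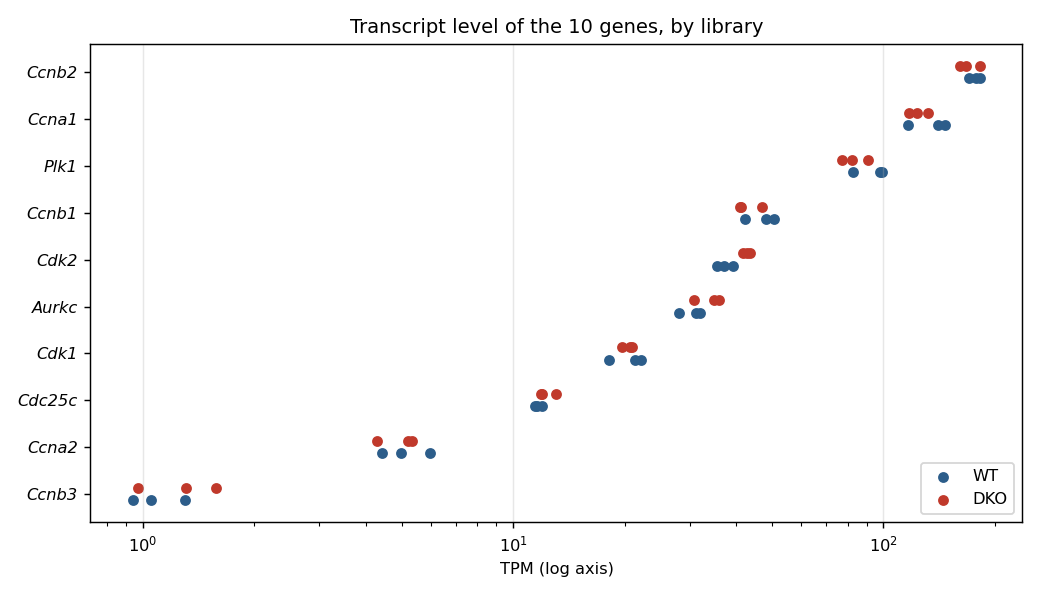
Transcript level of each gene in TPM (log axis), with 1 point per library and the 3 DKO libraries (red) set just above the 3 WT libraries (blue). Genes are ordered by their mean, from Ccnb3 near 1 TPM to Ccnb2 near 173 TPM; Cdk2 is the gene whose red and blue points are most clearly apart.

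Cdk2 was the only 1 of the 10 genes that passed the test between genotypes. It was at 65.0, 63.9 and 61.4 CPM in DKO libraries and at 53.0, 53.7 and 53.4 CPM in WT libraries. Every DKO library was above every WT library, and the WT values lay within 1 CPM of each other. That WT spread, a coefficient of variation of 0.674%, was smaller than the 2.49% from counting error alone. Among DKO libraries it was 2.94% against 1.76%. In TPM the WT libraries ran from 35.47 to 39.32 and the DKO libraries from 41.70 to 43.69. The difference was 63.4 ± 1.87 against 53.4 ± 0.359 CPM (SD, n = 3 each). On the log2 scale Cdk2 was higher in DKO libraries by 0.25 (SE 0.0658; 95% interval 0.11 to 0.39; edgeR quasi-likelihood test, adjusted p = 0.0394), or by 18.9%. A count of 1 in 10 is close to the background of this comparison, in which 10.8% of 17110 tested genes were called. Cdk2 lies at chr10:128697938-128705051 (GRCm38.p6, minus strand), and its 5′ end overlaps Pmel, a pigment-cell gene on the opposite strand. Strand handling of the counts is not given in the sources used here. Pmel was at 14.4 ± 0.392 CPM in DKO and 13.8 ± 1.54 CPM in WT libraries (SD, n = 3 each; log2 fold change 0.06, edgeR adjusted p = 0.717).

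The call of Cdk2 was close to the threshold. It stayed higher in DKO libraries in all 10 fits that kept every library and in all 6 that left out 1 library, with log2 fold changes from 0.19 to 0.27. The call was lost in 5 of the 6 fits that left out a library. The edgeR adjusted p was 0.136 without DKO replicate 1 and 0.0963 without DKO replicate 2. It was 0.0720 without WT replicate 1, 0.133 without WT replicate 2 and 0.125 without WT replicate 3. In the same order, 0.0643%, 3.83%, 11.7%, 0.0747% and 0.0402% of all tested genes were called in these fits. The Cdk2 call was also lost in 4 of the 10 fits that kept every library. These were the fit with each library's trend on transcript length and GC content removed (log2 fold change 0.20, edgeR adjusted p = 0.0597), the fit that took fragment length as a covariate (0.19, adjusted p = 0.999), and limma on log2(TPM + 1) and log2(TPM + 0.1), at 0.19 and 0.20 (adjusted p = 0.0996 and 0.101). The share of all tested genes called in these 4 fits was 3.36%, 0.00584%, 4.3% and 5.53%. Because fragment length did not overlap between the groups, the fit on it cannot separate it from genotype, here and wherever it is used below.

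Cdk1, the kinase of division, was at 37.5, 36.7 and 36.3 CPM in DKO and 32.9, 35.4 and 38.7 CPM in WT libraries. The 3 DKO values lay inside the range of the WT values. Its log2 fold change was 0.05 (SE 0.0782; 95% interval -0.12 to 0.22; edgeR adjusted p = 0.716). That interval ran from 8.26% lower to 16.4% higher in DKO libraries.

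Aurkc was the only other gene whose groups did not overlap in CPM. It was at 25.2, 23.3 and 25.5 CPM in DKO and 20.8, 22.3 and 22.6 CPM in WT libraries. The lowest DKO value was above the highest WT value, yet the difference did not pass the test (log2 fold change 0.17, SE 0.0799; 95% interval -0.0049 to 0.35; edgeR adjusted p = 0.169). In TPM the Aurkc groups overlapped, since DKO replicate 2 was at 30.75 TPM and WT replicates 2 and 3 were at 32.01 and 31.15 TPM. Groups without overlap in CPM were thus seen in 2 of the 10 genes and in 35.9% of all tested genes.

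Cdc25c was at 15.2, 14.4 and 13.3 CPM in DKO and 13.6, 12.4 and 13.5 CPM in WT libraries. DKO replicates 1 and 2 were above every WT library and DKO replicate 3 was not. Cdc25c overlaps the span of Gm3550 in the annotation. Strand handling is not given, so its counts could include reads from that gene, although they were whole numbers in every library. The log2 fold change was 0.12 (SE 0.0914; 95% interval -0.0821 to 0.32; edgeR adjusted p = 0.400).

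Plk1 was at 104, 114 and 118 CPM in DKO and 112, 122 and 129 CPM in WT libraries. Only DKO replicate 1 lay below all WT values. Its log2 fold change was -0.11 (SE 0.0791; 95% interval -0.28 to 0.0655; edgeR adjusted p = 0.373).

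**Figure D2:**
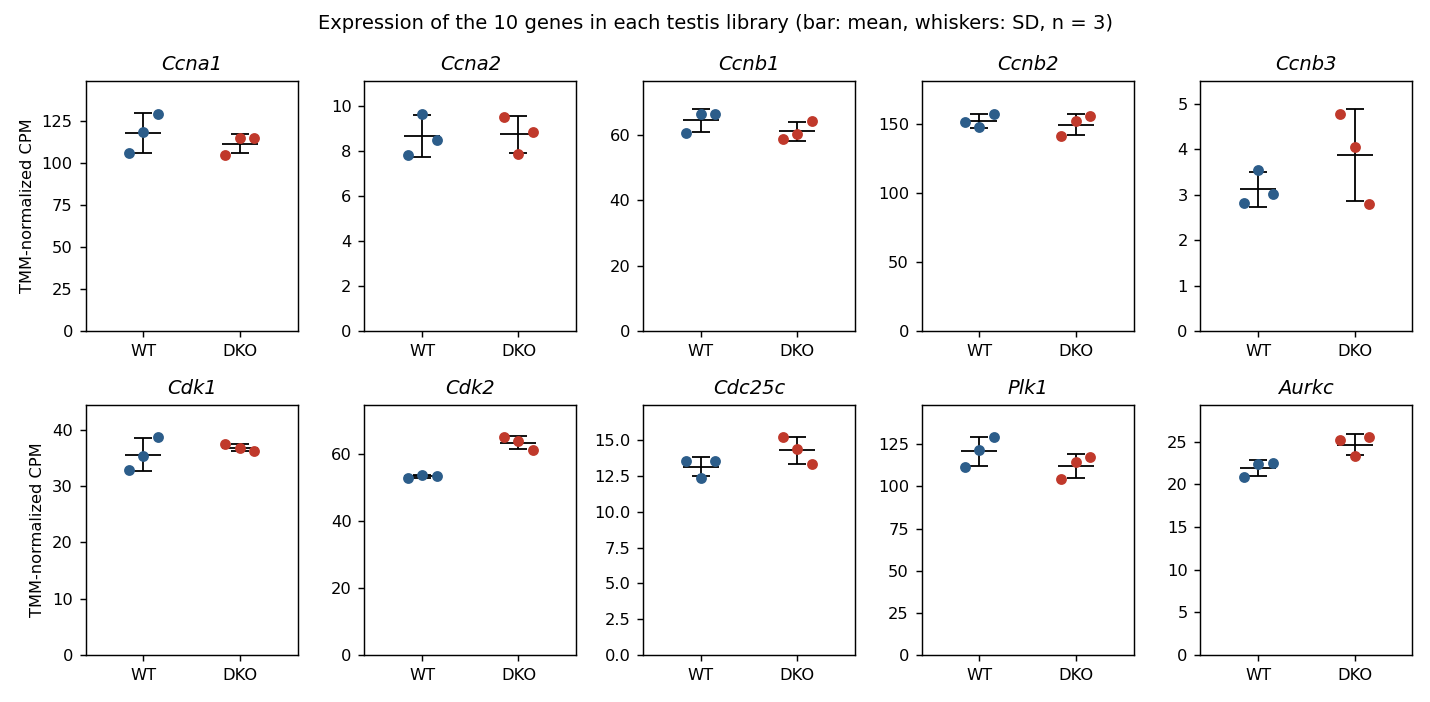
TMM-normalized CPM of each gene by group, with 1 point per library (replicates 1 to 3 from left to right), the mean as a horizontal bar and the SD as whiskers (n = 3). Axes start at 0 and differ between panels. Only Cdk2 and Aurkc show DKO points wholly above the WT points.

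None of the 5 cyclins passed the test (edgeR; 0 at an unadjusted p under 0.05, and 0 called by DESeq2 or by limma on either TPM scale). Ccna1 was at 105, 115 and 115 CPM in DKO and 106, 118 and 130 CPM in WT libraries, and the groups overlapped. Its log2 fold change was -0.08 (SE 0.0837; 95% interval -0.27 to 0.10; edgeR adjusted p = 0.535). Ccna1 shares its 5′ end with 4931419H13Rik, a long noncoding gene on the opposite strand. That gene was at 3.21 ± 0.341 CPM in DKO and 4.90 ± 0.269 CPM in WT libraries (SD, n = 3 each; log2 fold change -0.61, edgeR adjusted p = 0.0277), far below Ccna1 in counts. Ccna2 was at 9.51, 7.88 and 8.84 CPM in DKO and 7.85, 9.67 and 8.50 CPM in WT libraries, with both groups over nearly the same range (log2 fold change 0.0084, SE 0.113; edgeR adjusted p = 0.968). Ccna2 overlaps the 3′ end of Exosc9, and its expected counts were fractional in 6 of 6 libraries, so its reads were partly shared and its level is uncertain.

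Ccnb1 was at 58.7, 60.3 and 64.3 CPM in DKO and 60.4, 66.5 and 66.3 CPM in WT libraries. The groups overlapped through DKO replicate 3 and WT replicate 1 (log2 fold change -0.08, SE 0.0728; 95% interval -0.24 to 0.0836; edgeR adjusted p = 0.505). After removal of the length and GC trends, Ccnb1 was at -0.25 (edgeR unadjusted p = 0.00957, adjusted p = 0.105). Ccnb2 was at 141, 152 and 155 CPM in DKO and 151, 147 and 157 CPM in WT libraries. Only DKO replicate 1 lay outside the WT range, and the log2 fold change of -0.03 had the narrowest interval among the cyclins (SE 0.0698; 95% interval -0.18 to 0.13; edgeR adjusted p = 0.827). For Ccnb2 it ran from 11.7% lower to 9.18% higher in DKO libraries.

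Ccnb3 varied most between libraries. It was at 4.78, 4.04 and 2.80 CPM in DKO and 2.81, 3.55 and 3.01 CPM in WT libraries. DKO replicates 1 and 2 were above all WT libraries and DKO replicate 3 was below them. The coefficient of variation among DKO libraries was 25.9%, against 7.28% from counting error alone, and 12.3% against 10.2% among WT libraries. The log2 fold change was 0.29 (SE 0.198, 95% interval -0.14 to 0.73, edgeR adjusted p = 0.334), and the interval reached 65.3% higher in DKO libraries. Without DKO replicate 3 it was 0.49 (edgeR unadjusted p = 0.0124, adjusted p = 0.0615). Without DKO replicate 1 it was 0.10 (edgeR adjusted p = 0.812).

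**Figure D3:**
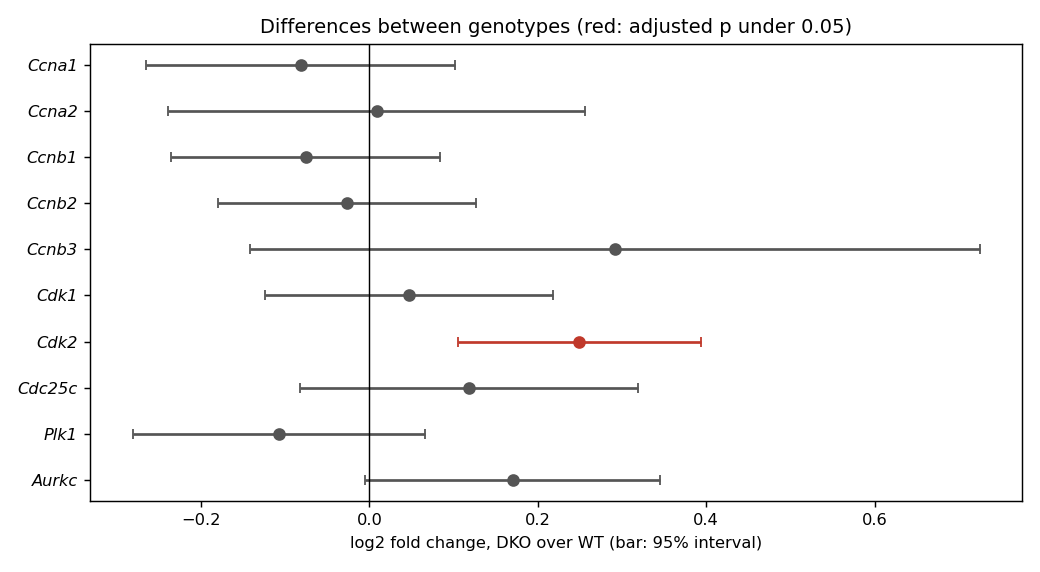
Log2 fold change of each gene, DKO over WT, with its 95% interval as a bar. Cdk2 (red, 0.25) is the gene with an adjusted p under 0.05, and Ccnb3 has the widest interval.

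Single libraries stood at the extremes for several genes at once. DKO replicate 1 was lowest of the 6 for 4 genes (Ccna1, Ccnb1, Ccnb2 and Plk1) and highest for 3 (Ccnb3, Cdk2 and Cdc25c). It also had the longest mean fragment, 317 bases, and whether this bears on those levels was not tested. WT replicate 3 was highest for Ccna1, Ccnb2, Cdk1 and Plk1, and WT replicate 1 was lowest for Ccna2, Cdk1, Cdk2 and Aurkc. In the fit with fragment length as a covariate, 6 of the 10 genes changed sign (Ccna1, Ccnb1, Ccnb2, Ccnb3, Cdc25c and Plk1). Fragment length did not overlap between the groups, so that fit cannot separate it from genotype and its signs decide nothing about these genes. None of the 10 passed the test in that fit (edgeR; 0 also at an unadjusted p under 0.05), in which 0.00584% of all tested genes were called.

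**Figure D4:**
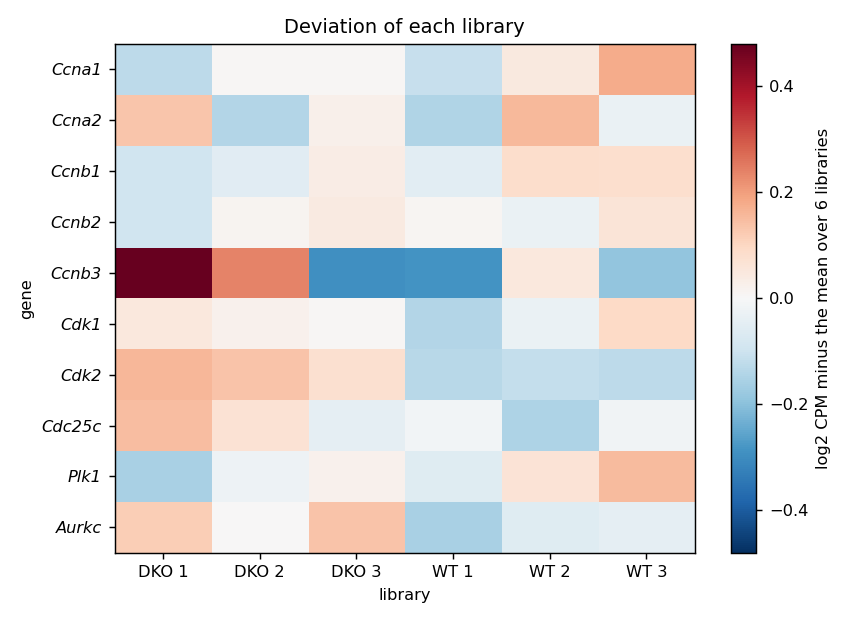
Deviation of each library (columns) from the mean over the 6 libraries for each gene (rows), in log2 CPM; red is above and blue below the mean. The Ccnb3 row has the widest spread, and the DKO 1 column is blue for Ccna1, Ccnb1, Ccnb2 and Plk1.

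Shares within related pairs were compared on the TPM scale. Cdk1 made up 32.1%, 32.1% and 32.8% of the summed Cdk1 and Cdk2 level in DKO libraries and 33.9%, 35.2% and 37.4% in WT libraries. Cdk2 is part of that sum, so these shares are not a result separate from the Cdk2 difference given above. All DKO shares were below all WT shares, and the mean differed by -3.18 percentage points (two-sided exact permutation p = 0.1, which 3 libraries a group cannot go below; 0.3 adjusted over 3 pairs). Ccnb1 made up 20.2% ± 0.393 of the summed Ccnb1 and Ccnb2 level in DKO and 21.0% ± 1.08 in WT libraries (SD, n = 3 each; exact permutation p = 0.3, adjusted 0.45). Ccna1 made up 96.2% ± 0.498 of the summed Ccna1 and Ccna2 level in DKO and 96.3% ± 0.396 in WT libraries (SD, n = 3 each; exact permutation p = 0.6, adjusted 0.6). Ccnb2 and Ccna1 were therefore the predominant transcripts of their pairs in 6 of 6 libraries.

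The partners and regulators of these genes were read from 6 further lists, 105 genes in all, of which 104 passed the filter on low counts. Of these, 12 were called higher and 5 lower in DKO libraries, against 5.75% higher and 5.1% lower among all tested genes. As over all tested genes, these calls depended on single libraries. Of the 104 genes, 0 were called without DKO replicate 1, WT replicate 2 or WT replicate 3. In those fits 30, 30 and 39 had an unadjusted p under 0.05 (edgeR). Without DKO replicate 2, 5 were called (1 higher and 4 lower), and without DKO replicate 3, 25 (21 higher and 4 lower). In the same order, 0.0643%, 0.0747%, 0.0402%, 3.83% and 17.7% of all tested genes were called. With the trend on length and GC content removed 5 were called, against 3.36% of all genes. In the fit on fragment length 0 were called (edgeR, 4 at an unadjusted p under 0.05), against 0.00584%. DESeq2 called 18 higher and 8 lower, against 11.6% higher and 9.19% lower among all genes to which it gave an adjusted p. The balance turned on the TPM scales, as it did over all tested genes. There limma called 2 higher and 3 lower on log2(TPM + 1), against 1.63% and 2.67% of all genes. On log2(TPM + 0.1) it called 3 higher and 5 lower, against 2.16% and 3.37%. The median log2 fold change of the 104 genes was 0.04, and that of all tested genes was -0.0042. Many named genes overlap the span of a neighbour in the annotation. Strand handling is not given, so their counts could include reads from that neighbour where the transcripts themselves overlap. This applies at least to Ccne2, Cntd1, Mnat1, Cdk14, Spdya, Cdc25a, Anapc15, Anapc13 and Anapc16. Overlaps were looked up by symbol, so a named gene without a matching symbol could be missing here. The named cell-type markers Sycp3, Pou5f2, Gapdhs and Tagln overlap neighbours as well. Ccne2, Cntd1 and Spdya also carried fractional counts in every library. Mnat1, Cdk14, Cdc25a, Anapc15, Anapc13 and Anapc16 had whole counts in every library.

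Among 22 other cyclins, 3 were called, all higher. Ccne2, an E-type cyclin that pairs with CDK2, was at 38.9 ± 8.18 CPM in DKO and 26.5 ± 1.67 CPM in WT libraries (SD, n = 3 each; log2 fold change 0.55, edgeR adjusted p = 0.0333). Its sign was reversed when fragment length was a covariate (-0.0538), in a fit that cannot separate fragment length from genotype. Cntd1, a cyclin-like protein of meiotic crossovers, had a log2 fold change of 0.28 (edgeR adjusted p = 0.0464), and Ccnyl1, a relative of cyclin Y, had 0.26 (adjusted p = 0.0427). Ccne1, the other E-type cyclin, was at -0.14 (adjusted p = 0.365). The median of the list was 0.13.

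Among 22 other kinases and partners, 3 were called higher and 1 lower, with a median of -0.01. Spdya, which encodes the Speedy A activator of CDK2 at meiotic telomeres, was at 105 ± 10.6 CPM in DKO and 83.9 ± 5.88 CPM in WT libraries (SD, n = 3 each). Its log2 fold change was 0.32 (edgeR adjusted p = 0.0436). The Spdya call was kept in 5 of the 10 other fits that kept every library and in 1 of the 6 leave-one-out fits. Mnat1, an assembly factor of the CDK-activating kinase, had a log2 fold change of 0.40 (adjusted p = 0.0343), and that of Cdk14 was 0.36 (0.0413). Cdk9, the kinase of transcription elongation, fell from 39.1 ± 2.44 CPM in WT to 29.3 ± 1.11 CPM in DKO libraries (SD, n = 3 each; log2 fold change -0.42, edgeR adjusted p = 0.0237). None of 8 CDK inhibitors was called by edgeR (median -0.10), although 4 had an unadjusted p under 0.05, DESeq2 called 2 and limma called 1 on each TPM scale.

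Among 11 tested genes that control CDK1 activity, Cdc25a, a phosphatase that activates CDK1 and CDK2, was the only 1 called (log2 fold change 0.25, edgeR adjusted p = 0.0490, list median 0.10). The Cdc25a call was kept in 4 of the 10 other fits that kept every library and in 1 of the 6 leave-one-out fits. Hspa2, a chaperone of CDK1 in spermatocytes, was at -0.20 (adjusted p = 0.0881) and Wee1, an inhibitory kinase, at -0.04 (0.824). Among 14 genes for Aurora and Polo kinases and their partners, 2 were called, both higher (median 0.11). Bub1, a checkpoint kinase, was at 75.1 ± 6.68 CPM in DKO and 57.0 ± 2.68 CPM in WT libraries (SD, n = 3 each; log2 fold change 0.40, edgeR adjusted p = 0.0263). Gsg2, which encodes the histone kinase haspin, was at 1079 ± 90.4 and 820 ± 63.5 CPM (SD, n = 3 each; log2 fold change 0.40, edgeR adjusted p = 0.0288). Aurka and Aurkb, the paralogs of Aurkc, were at 0.12 (adjusted p = 0.284) and -0.07 (0.652).

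The anaphase-promoting complex and the spindle checkpoint had 3 genes called higher and 4 lower of 27 (median 0.02). Ttk, a checkpoint kinase also known as MPS1, was higher, with a log2 fold change of 0.37 (edgeR adjusted p = 0.0270). The genes with the smallest p among those lower were Anapc15, Anapc13 and Anapc16, subunits of the complex. Their log2 fold changes were -0.51, -0.88 and -0.36 (edgeR adjusted p = 0.0233, 0.0263 and 0.0391). Of all 27 genes, 14 were in the higher and 13 in the lower direction. The transcripts of Anapc15, Anapc13 and Anapc16 are 870 to 877, 408 and 1329 bases long, and that of Ttk is 2895 to 2903. Whether length bears on these calls was not tested. With the effective-length offset, 2 genes of this list were called higher and 3 lower, and Anapc13 was no longer called. With the trend on length and GC content removed, Anapc15 was still called lower, and it was the 1 gene called lower. Anapc13, Anapc16 and Ttk were no longer called, and the 1 gene called higher, Ube2s, had not been called before. These counts stood against 1.78% higher and 1.58% lower of all genes in that fit.

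The medians of all 6 lists changed sign in at least 1 other fit. After removal of the length and GC trends, the median was -0.0802 for control of CDK1 activity, 0.0475 for the CDK inhibitors, -0.0495 for the anaphase-promoting complex and checkpoint, and 0.0361 for the other kinases. In the fit on fragment length it was -0.0386 for the other cyclins, -0.0854 for control of CDK1 activity and -0.0038 for the Aurora and Polo group. That fit cannot separate fragment length from genotype. For the other cyclins and the Aurora and Polo group, no other fit changed the sign.

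**Figure D5:**
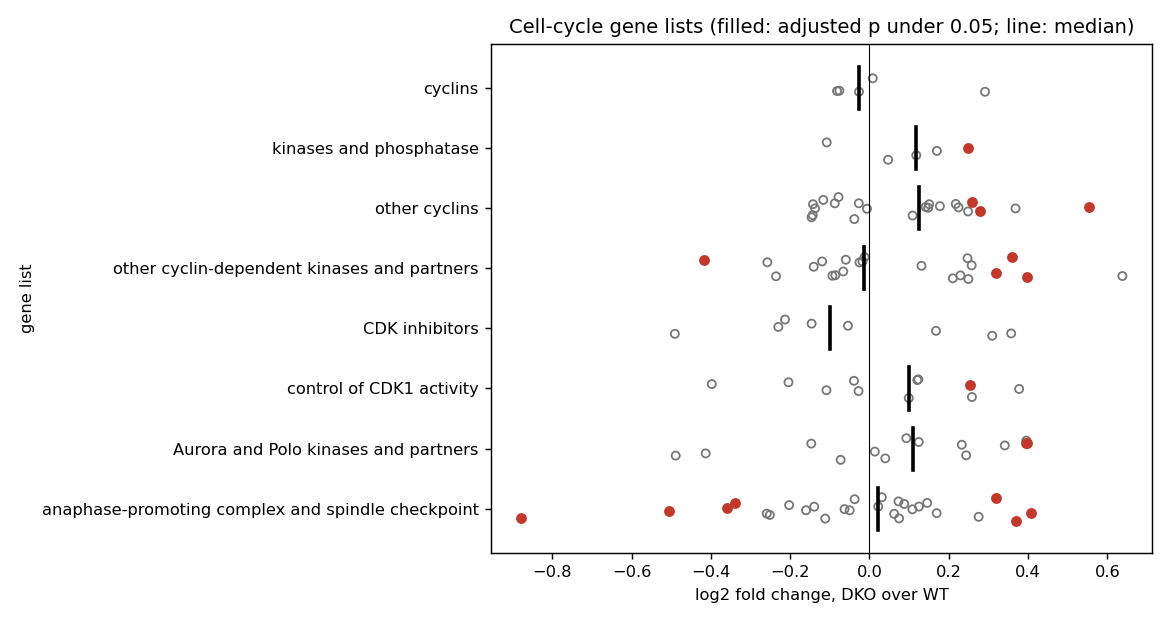
Log2 fold change, DKO over WT, of every tested gene (points) in the 10 genes described here (the upper 2 rows) and in the 6 lists of partners and regulators; filled points have an adjusted p under 0.05 and black lines are list medians. The medians of the 6 lists lie between -0.10 and 0.13 in this fit, and each changed sign in at least 1 other fit. The lower calls lie mostly in the anaphase-promoting complex.

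Markers of germ-cell and somatic cell types were counted beside these results, since in whole testis fewer cells of a type and less RNA per cell cannot be told apart. The shares to set beside the counts are those of all tested genes, 5.75% higher and 5.1% lower. Of 19 tested markers of spermatocytes in prophase, 3 were called higher and 0 lower, with a median of 0.14; Sycp3 was at 0.67 and Pou5f2 at 0.30 (edgeR adjusted p = 0.0237 and 0.0343). After removal of the length and GC trends the median was 0.0498 with 2 called, and in the fit on fragment length it was -0.0346 with 0 called (edgeR; 0 at an unadjusted p under 0.05). Their summed level was 5125 to 5523 CPM in DKO and 4740 to 5036 CPM in WT libraries, without overlap. Of 13 spermatogonia markers 0 were called (edgeR, median 0.02; 1 at an unadjusted p under 0.05, 0 by DESeq2 or limma), and the sums overlapped at 831 to 882 and 786 to 862 CPM. Of 18 spermatid markers, Akap4 was called higher (0.35) and Gapdhs lower (-0.43), with a median of 0.0035. The higher spermatocyte sum and the higher level of Cdk2 thus occurred in the same libraries, and whether they are linked was not tested.

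Every somatic marker that was called was lower in DKO libraries. Of 16 Sertoli-cell markers 5 were called lower (median -0.20; Defb19 at -0.97 and Cst12 at -0.51), with a sum of 1629 to 1907 CPM in DKO and 1844 to 2169 CPM in WT libraries. Of 12 Leydig-cell markers 3 were called lower (median -0.43; Star at -0.79 and Hsd3b6 at -1.09), with sums of 581 to 815 and 800.1 to 1366 CPM. Of 9 peritubular and endothelial markers 1 was called lower (Tagln at -0.58; median -0.23), with sums of 148 to 165 and 170.4 to 212 CPM. None of 9 macrophage markers was called by edgeR (median -0.38; 4 at an unadjusted p under 0.05, 1 by DESeq2, 0 by limma). Their median was -0.0403 without WT replicate 2 and turned to 0.0979 in the fit on fragment length. Their sums were 77.2 to 87.2 CPM in DKO and 71.9 to 114 CPM in WT libraries. Of 5 red blood cell genes, 2 passed the filter, 0 were called by edgeR, DESeq2 or limma (0 at an unadjusted p under 0.05), Hba-a2 and Hbb-bs had no counts, and the sums were 22.0 to 26.2 and 21.6 to 24.2 CPM. The part of these shifts in the levels of the 10 genes was not tested. Without DKO replicate 1, WT replicate 2 or WT replicate 3, 0 spermatocyte markers and 0 peritubular and endothelial markers were called by edgeR. At an unadjusted p under 0.05 were 6, 8 and 9 of the former and 2, 3 and 4 of the latter. At most 1 Sertoli-cell and 1 Leydig-cell marker was called in these fits. The shares of all tested genes called in them were 0.0643%, 0.0747% and 0.0402%. In the fit on fragment length 0 Sertoli-cell, Leydig-cell or peritubular and endothelial markers were called (edgeR; 2, 2 and 0 at an unadjusted p under 0.05), and the medians were -0.0659 for Sertoli cells, -0.20 for Leydig cells and -0.0601 for peritubular and endothelial cells.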

How the data were processed

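RNA from 6 testes (3 DKO, 3 WT, by the genotype label) was sequenced; replicates were numbered in accession order. Only the labels say that each library is from its own animal. The submitters' processing notes name STAR 2.7.0f, RSEM 1.2.31, DESeq2 1.12.3 and build mm10. Per the file headers, the authors deposited RSEM expected counts, TPM values (per effective length, with a fixed sum per library) and lengths, 1 file per library; filters and strand handling are not given in the sources used here.

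Expected counts (93.2% whole within 1e-09) were rounded, filtered with filterByExpr (17110 genes kept), scaled by TMM and tested with edgeR 4.0.16 (glmQLFit, glmQLFTest; genotype as the only term; R 4.3.3). P-values were adjusted by Benjamini-Hochberg over all tested genes and called under 0.05. SE is the log2 fold change divided by the square root of F; 95% intervals use the total degrees of freedom. CPM are TMM-normalized. TPM was used for levels between genes and for shares, compared by exact permutation. The scripts were tested on simulated counts.

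Alternatives were DESeq2 1.42.0, its size factors, other filters (none, mean count of 50), effective-length and length-GC offsets (mgcv 1.9.3; GC for 97.8% of genes), the fragment length as covariate, thinning, limma 3.58.1 on log2(TPM + 1) and log2(TPM + 0.1), and leaving out each library. Fragment length was read per library from the gap between a gene's length and effective length (median, genes over 3000 bases). Genes named are the 10, both targeted genes and, by smallest p, up to 4 called genes per partner list and 2 per marker list; uncalled partners (Ccne1, Hspa2, Wee1, Aurka, Aurkb, Ube2s), overlapping genes and markers without counts were added after their values were seen. The genes and lists were chosen with earlier results of these data known. Sequences and positions are from RefSeq (GRCm38.p6), with 10 of 10 symbols matched, and strands from GENCODE M21.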

Additional observations from a re-analysis of the deposited data

How the results depend on the processing

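The number of genes called over all tested genes was 1856, and the number among the 10 was 1 (Cdk2). Over all genes it was 566 with the length and GC trends removed, 1 with the fragment length as a covariate, 2943 with DESeq2, 735 with limma on log2(TPM + 1) and 947 on log2(TPM + 0.1), and from 7 to 3029 when a library was left out (7 without WT replicate 3, 11 without DKO replicate 1, 13 without WT replicate 2). Of the calls, 53.0% were higher in DKO libraries, against 38.0% and 39.1% on the 2 TPM scales, 26.0% without DKO replicate 2, 62.8% without DKO replicate 3, and 0% without DKO replicate 1, WT replicate 2 or WT replicate 3. Among the 10 it was 0 with the length and GC trends removed (3 at an unadjusted p under 0.05: Cdk2, Aurkc and Ccnb1), 0 with the fragment length as a covariate (0 unadjusted), 0 on both TPM scales (1 unadjusted in each), and 0 to 1 when a library was left out. Cdk2 and Aurkc were higher in DKO libraries in every fit run.

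In at least 1 fit the sign changed for 8 of the 10 genes, among them Ccnb3, whose 0.29 was the largest value. The fit with fragment length as covariate cannot separate it from genotype. In that fit the log2 fold change was 0.11 for Ccna1, 0.0907 for Ccnb1, 0.0699 for Ccnb2, -0.20 for Ccnb3, -0.10 for Cdc25c and 0.0981 for Plk1. With the length and GC trends removed it was -0.12 for Ccna2, -0.0102 for Ccnb3, -0.0375 for Cdk1 and 0.0183 for Plk1. On log2(TPM + 1) and log2(TPM + 0.1) it was -0.0375 and -0.0436 for Ccna2, and -0.0064 and -0.0065 for Cdk1. Ccna2 was at -0.00057 with a mean count of at least 50, -0.0036 with the effective-length offset and -0.00035 after thinning. When a library was left out, Ccna2 ranged from -0.0728 to 0.0885, Ccnb2 from -0.0557 to 0.00046 and Cdk1 from -0.0229 to 0.11, and the difference in the Ccna1 share ranged from -0.40 to 0.0923 percentage points. The cause of these changes was not tested. No paired analysis was possible because the labels give no numbers shared between the groups.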
